A study of Mus musculus with 4 samples.

Results

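The comparison described here sets a KPC tumour treated with AF12198 against a suture-ligated pancreas without tumour, over every cell barcode with 500 or more unique molecular identifiers (UMIs), 250 or more genes and at most 20% mitochondrial UMIs. These were 19868 barcodes of the treated tumour and 1124 of the ligated pancreas, together 20992 of the 44162 barcodes that passed the same filter in the series and of 48038 deposited. Each side was 1 mouse library made with the 10x Genomics 3′ kit (v3 chemistry), so no difference has a replicate check, no test was made, and the 95% intervals cover counting error only.

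The ligated pancreas had its duct occluded by a suture at the middle of the gland, which brings on pancreatitis, and received no tumour cells. For the treated tumour, KPC cells, a mouse pancreatic cancer line, were injected into a ligated pancreas, and the mouse was given AF12198, a small peptide that blocks the interleukin-1 receptor IL1R1, into the peritoneum once a week. All tissue was taken at 4 weeks and digested with collagenases for 90 minutes at 37°C. The ligated side therefore lacked tumour cells, injections and AF12198 alike, so tumour growth, the injections and the antagonist cannot be told apart in this comparison. A control KPC tumour given saline is set beside the levels of single genes and the class shares to show them without AF12198. The sources used here do not give strain, sex, age, the clone of the KPC cells or the number of animals behind a library.

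Interleukin-1 alpha and beta are cytokines released by damaged cells and by activated neutrophils and macrophages. Both bind IL1R1, which passes the signal through MYD88 and IRAK kinases to NF-kB, while the antagonist IL1RN and the decoy receptor IL1R2 hold it back. In the pancreas, duct obstruction is known for loss of acinar cells, duct-like epithelium, fibroblast expansion and leukocyte entry, and pancreatic carcinoma for dense stroma rich in fibroblasts, neutrophils and macrophages.

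The libraries held 5315805 kept UMIs in the ligated pancreas and 91819215 in the treated tumour, at medians of 2216 and 2425 UMIs per barcode. 11 barcodes occurred in both, 0.979% of those of the ligated pancreas. Gm42418, a gene model that collects ribosomal RNA reads, took 15.0% of the UMIs of the ligated pancreas, 4.51% of the control tumour and 4.86% of the treated tumour, and mitochondrial genes took 1.91%, 6.02% and 5.06%. Ribosomal protein genes took 6.77%, 9.07% and 15.2%. These shares scale every other gene of a library. The counts of genes with Gm42418 and the mitochondrial genes left out are given with those of the whole libraries, and the part of the ribosomal protein genes was not tested. Single genes are given below as CPM, their UMIs per 1000000 UMIs of the library or class, in the order ligated pancreas, control tumour, treated tumour, followed by the ratio of treated tumour to ligated pancreas and its interval. The class comparisons leave out 993 called doublets of the treated tumour, while the whole-library values keep them.

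The cell make-up of the 2 tissues had little in common. Stromal and epithelial cells made up most of the ligated pancreas, and leukocytes most of the treated tumour. Fibroblast-like cells, named from collagen and stromal markers, were 25.1% of cells in the ligated pancreas (282 cells), 7.01% in the control tumour and 2.76% in the treated tumour (521 cells), a ratio of 0.110 (0.0950 to 0.128). Epithelial-like cells were 30.2%, 3.31% and 2.98%, a ratio of 0.0989 (0.0863 to 0.113), and endothelial-like cells 11.7%, 2.63% and 1.84%, a ratio of 0.158 (0.129 to 0.194). All 3 classes lay below the ligated pancreas in both tumours. Counted among named non-immune cells only, the ratios were 0.971 for fibroblast-like, 0.873 for epithelial-like and 1.39 for endothelial-like cells. These shares leave out an unnamed cluster with 6 of 11 epithelial markers raised. It held 3 cells of the ligated pancreas, 634 of the control tumour and 599 of the treated tumour, beside 563 epithelial-like cells there. Counting it would raise both epithelial-like ratios and lower the other 2 ratios among non-immune cells. At the finer clustering resolution of 2.0 the fibroblast-like ratio was 0.0429 over all cells, and among non-immune cells the 3 ratios were 0.440, 1.11 and 1.63, so the proportions of these classes to one another rest on the clustering. A cluster with 12 of 12 fibroblast markers raised stayed unnamed at that resolution, which left out 71 cells of the ligated pancreas and 370 of the treated tumour. At the coarser 0.5 the duct cluster had no name, which left an epithelial-like ratio of 16.2 without it.

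Neutrophil-like cells went from 7.83% of the ligated pancreas (88 cells) to 31.4% of the control tumour and 39.7% of the treated tumour (7489 cells), a ratio of 5.07 (4.11 to 6.33). T-like cells were 5.34%, 12.5% and 13.2%, a ratio of 2.47 (1.91 to 3.25). Macrophage/monocyte-like cells were 14.9%, 25.5% and 23.8%, a ratio of 1.60 (1.37 to 1.88). The smaller immune classes were nearly missing from the ligated pancreas. It held 4 dendritic-like, 2 B-like and 1 mast or basophil-like cell, against 820, 644 and 39 in the control tumour and 817, 482 and 178 in the treated tumour. No cell of the ligated pancreas was NK or innate lymphoid-like, which allows a share of up to 0.267% at 3 counts and of 0.328% by the exact interval, against 354 cells (1.84%) in the control tumour and 378 (2.0%) in the treated tumour. In a clustering that included the doublets, 5 cells of the ligated pancreas (0.445%) took that name, so the count of 0 rests on the clustering. Plasma-like cells were 0.979% of the ligated pancreas (11 cells), 1.54% of the control tumour (296) and 0.360% of the treated tumour (68), a ratio of 0.368 (0.193 to 0.772). The share of the control tumour lay inside the interval of the ligated pancreas (0.490% to 1.74%). With cells limited to 1000 or more UMIs, 500 genes and 10% mitochondrial UMIs, the ratios were 3.17 for macrophage/monocyte-like and 5.68 for T-like cells. The plasma-like ratio was then 1.14 (0.371 to 5.66), with 3 cells of the ligated pancreas, so its direction rests on the cell filter. How tissue is dissociated and how many cells are loaded bear on such shares, and their part was not tested.

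**Figure D1:**
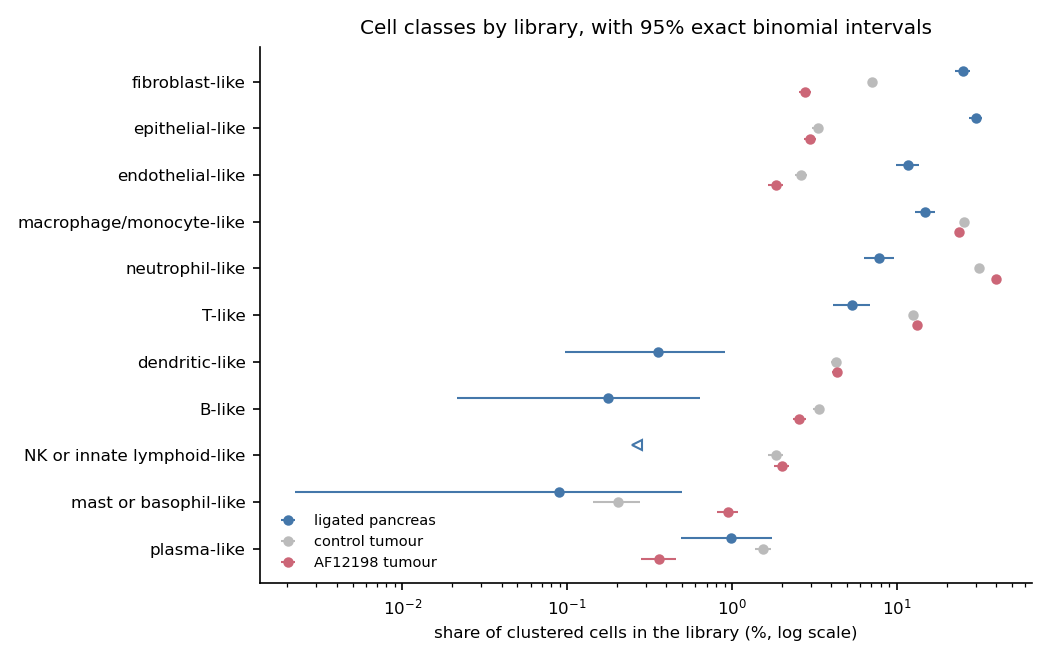
Share of clustered cells in each class (percent, log axis) in the ligated pancreas, the control tumour and the AF12198-treated tumour, with points for the share and bars for 95% exact binomial intervals. The open triangle marks the highest share that 0 NK or innate lymphoid-like cells allow. Fibroblast-, epithelial- and endothelial-like shares lie to the right for the ligated pancreas and leukocyte shares to the right for both tumours, apart from plasma-like cells.

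Both sides held different cells under some of these names. The epithelial-like cells of the ligated pancreas were nearly all (335 of 339) from a cluster led by the duct genes Onecut1, Slc28a3 and Pkhd1, while 479 of 563 in the treated tumour came from a cluster led by Onecut2, Foxq1 and Cxcl5. A cluster led by Lgals2, Cdh17 and Cldn18, with 6 of 11 epithelial markers raised, held 3 cells of the ligated pancreas, 634 of the control tumour and 599 of the treated tumour, and stayed unnamed and outside the epithelial-like class because the mesothelial gene Msln was among its leading genes. The neutrophil-like cells of the ligated pancreas came mainly from 1 cluster (64 of 88), and those of the treated tumour from that cluster (2795) and from one led by Tnf, Il1a and Siglecf (3907), which held 3 cells of the ligated pancreas. Of the macrophage/monocyte-like cells, 131 of 167 in the ligated pancreas fell in a cluster led by Ms4a4c and Ccr2, and 2385 of 4492 in the treated tumour in one led by Ccl24, Arg1 and Mmp12, with 12 cells of the ligated pancreas. At resolution 2.0 only 55 cells of the ligated pancreas took this name. An unnamed cluster led by Cela2a, Cela1 and Clps held 133 cells of the ligated pancreas and 229 of the treated tumour. It had 7 of 12 acinar and 6 of 12 macrophage/monocyte markers raised. Of the T-like cells, 48 of 60 in the ligated pancreas were in a Tcf7 cluster, 5 in a Cd8a cluster, 7 in a Foxp3 cluster and 0 in a dividing one. The treated tumour had 1025, 1022, 316 and 127 cells in these clusters. The Foxp3 cluster held 11.7% of the class in the ligated pancreas, on 7 cells, and 12.7% in the treated tumour. At resolution 2.0 the cells of the ligated pancreas lay mainly in a Tnfsf11 and Cd4 cluster (27), a Tcf7 cluster (16) and a Foxp3 cluster (16). That Foxp3 cluster held 16 of 60 T-like cells of the ligated pancreas and 315 of 2499 of the treated tumour. With doublets kept the counts were 13 of 54 and 344 of 2866. Whether the Foxp3 share was alike or higher in the ligated pancreas thus rests on the clustering. Fibroblast-like cells formed a single cluster, and endothelial-like cells 1 of blood vessels and 1 of lymphatics, with 38 of 131 lymphatic in the ligated pancreas and 34 of 347 in the treated tumour. A difference within a class can thus be a difference between the cells it holds.

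Over the whole libraries, 12528 genes were measured, meaning at least 5 CPM on 1 side and at least 5 UMIs expected at that level in the smaller library. Of these, 1517 (12.1%) were at least 2-fold higher in the treated tumour and 4538 (36.2%) at least 2-fold lower, with a median log2 ratio of -0.54 over all measured genes. With each ratio taken relative to that median, a step that by construction brings the 2 counts closer, 2580 genes were higher and 3012 lower. With Gm42418, another gene model of that kind and the mitochondrial genes left out the counts were 1364 and 5196, and with every cell weighted equally 1293 and 5378. In bulk sums such as these, fewer cells of a type and less RNA per cell cannot be told apart.

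The genes that stood highest belonged to red cells, secretory epithelium and lymphocytes. The haemoglobin gene Hbb-bs had 0 UMIs in the ligated pancreas, 2139.8 CPM in the control tumour and 924 CPM in the treated tumour, at least 1637-fold higher. Here and below, such a bound sets 3 UMIs in the library or class against a count of 0. Reg3b and Reg2, secreted proteins of injured pancreas, stood at 4.89, 174 and 1044 CPM, 213-fold (146 to 327), and at 4.51, 87.1 and 932 CPM, 206-fold (139 to 322). Lgals2, a gut epithelial galectin, had 0 UMIs in the ligated pancreas, 118 CPM in the control tumour and 151 CPM in the treated tumour, at least 268-fold higher. The T and NK cell chemokine Ccl5 was at 2.82, 73.6 and 459 CPM, 163-fold (98.7 to 291), and stood higher in the treated than in the control tumour. With every cell weighted equally the ratios of Reg2 and Ccl5 were 84.3 and 61.6.

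The genes that stood lowest were those of duct cells, fibroblasts and 1 islet hormone. The duct transcription factor Onecut1 was at 247, 3.17 and 2.10 CPM, 118-fold (101 to 137) lower in the treated tumour, and Fgfr3, a growth factor receptor, at 203, 2.03 and 1.84 CPM, 110.5-fold (93.9 to 131) lower. The stromal methyltransferase Inmt was at 49.1, 1.46 and 0.403 CPM, 122-fold (86.1 to 177) lower. Glucagon (Gcg) was at 3602, 0.501 and 0.349 CPM, but 2 cells held 90% of its 19147 UMIs in the ligated pancreas, so that value describes those cells. Insulin 2 (Ins2) was instead higher, at 60.2, 192 and 325 CPM, with 5 cells holding 90% of the UMIs of the treated tumour.

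To separate the cell make-up from the levels inside cells, the class profiles of the ligated pancreas were weighted by the treated tumour's share of UMIs in the 6 classes compared, which held 83.9% of the UMIs of the treated tumour and 94.2% of those of the ligated pancreas. With the make-up held in this way, 1160 genes (9.26%) were at least 2-fold higher and 3373 (26.9%) at least 2-fold lower, with a median log2 ratio of -0.39. Of the 1517 genes higher in the whole libraries, 609 (40.1%) were still 2-fold higher and 94 had become 2-fold lower. Of the 4538 lower genes, 2576 (56.8%) were still 2-fold lower. The held ratios leave out the other classes, the unnamed cells and the called doublets, all of which the whole-library calls include. A lost or turned call can thus come from the cells left out as well as from the weighting, and these parts were not told apart. The 2-fold limits were not centred on the median of -0.39, so lower genes stay past 2-fold more easily than higher ones. The shares of 40.1% and 56.8% are therefore not set against each other.

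**Figure D2:**
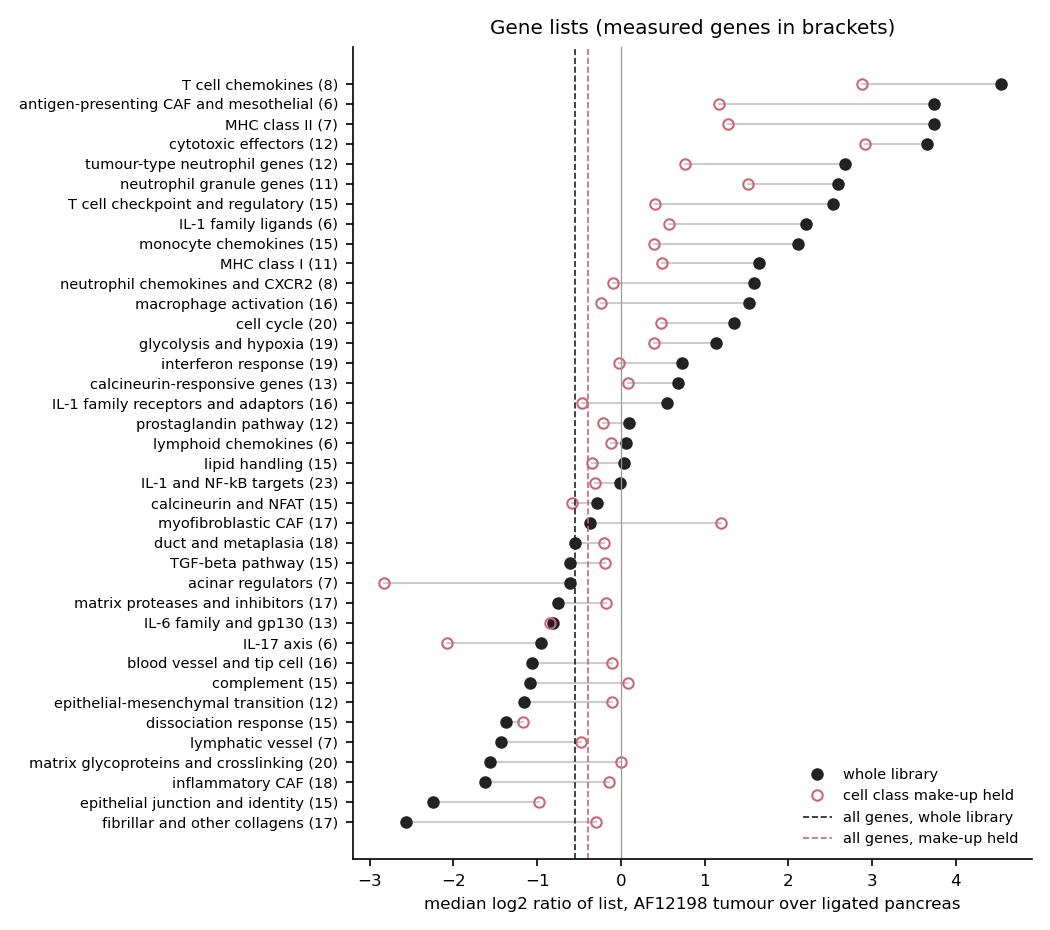
Median log2 ratio of treated tumour over ligated pancreas for each gene list, with the number of measured genes in brackets, over whole libraries (filled) and with the class make-up held (open), and dashed lines for the median over all measured genes. T cell chemokines (4.54 and 2.87) and cytotoxic genes (3.66 and 2.92) stay high, while collagens (-2.56 and -0.29) move to the level of all genes and myofibroblast genes cross it (-0.37 and 1.19).

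The IL-1 ligands were higher in the treated tumour. Of 6 measured ligands, 4 were at least 2-fold higher and 0 lower, with a median log2 ratio of 2.21 against -0.54 over all genes, and of 0.57 with the make-up held against -0.39. Il1b, the ligand released after inflammasome cleavage, was at 493, 3039 and 3405 CPM, 6.90-fold (6.64 to 7.18). Most of its UMIs came from neutrophil-like cells, with 77.7% of them in the ligated pancreas and 49.4% in the treated tumour, and from macrophage/monocyte-like cells, with 13.5% and 39.3%. With the make-up held its ratio was 1.25, close to no difference.

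Il1a, the ligand that is active without cleavage, was at 7.34, 118 and 294 CPM, 40.1-fold (29.3 to 56.4), the largest of the 6 ligand ratios. With the make-up held the ratio was still 7.70. In the ligated pancreas its 39 UMIs came from 18 cells, 9 of them neutrophil-like. Its level was higher in the treated than in the control tumour.

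The genes that restrain the receptor were higher as well. The antagonist Il1rn was at 115, 1179 and 1041 CPM, 9.06-fold (8.37 to 9.83), and at a ratio of 1.77 with the make-up held. The decoy receptor Il1r2, a neutrophil marker, was at 92.0, 643 and 392 CPM, 4.26-fold (3.90 to 4.67), but at 0.778 with the make-up held. The signalling receptor Il1r1, the target of AF12198, was lower, at 77.3, 33.7 and 16.9 CPM, 4.58-fold (4.10 to 5.11) lower, and at a ratio of 0.786 with the make-up held. Fibroblast-like cells held 70.8% of its UMIs in the ligated pancreas and 62.8% in the treated tumour.

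The other ligands and receptors moved less evenly. The alarmin Il33 was at 50.8, 67.6 and 30.7 CPM, a ratio of 0.605 (0.534 to 0.688), and at 1.83 with the make-up held, which turns its direction. Il18, an inflammasome product like Il1b, was at 6.77, 7.08 and 11.9 CPM, 1.76-fold (1.26 to 2.52), and its soluble inhibitor Il18bp at 6.77, 27.5 and 25.2 CPM, 3.72-fold (2.68 to 5.32). Nlrp3, the inflammasome sensor, was at 58.9, 341 and 449.6 CPM, 7.64-fold (6.83 to 8.56), and the adaptor Myd88 at 39.3, 55.8 and 44.4 CPM, 1.13-fold (0.983 to 1.30). Of 16 measured receptors and adaptors, 7 were at least 2-fold higher and 2 lower. Their median log2 ratio was 0.56 over whole libraries and -0.47 with the make-up held.

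**Figure D3:**
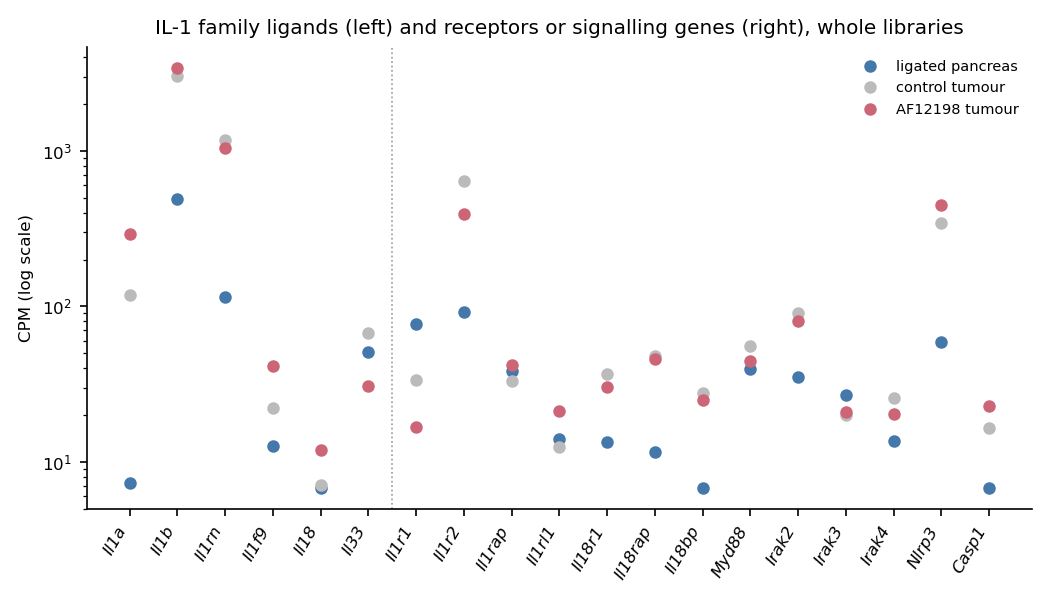
Level of IL-1 family ligands (left of the dotted line) and of receptors, adaptors and inflammasome genes (right) in CPM of each whole library, on a log axis, 1 point per library. Il1a, Il1b, Il1rn, Il1r2 and Nlrp3 lie above the ligated pancreas in both tumours, and Il1r1 lies below it in both.

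Targets of IL-1 and NF-kB stood less high than the ligands as a group, though above the level of all genes in the whole libraries. Of 23 measured targets, 4 were at least 2-fold higher and 2 lower, with a median log2 ratio of -0.01, and -0.30 with the make-up held. Among all genes measured in the whole libraries 12.1% were higher and 36.2% lower, with a median of -0.54. The higher ones included the neutrophil chemokine Cxcl2, at 942, 3629.8 and 6926 CPM, 7.36-fold (7.15 to 7.56), and the mitochondrial superoxide dismutase Sod2, at 91.4, 133 and 214 CPM, 2.34-fold (2.14 to 2.56). The lower ones were Cxcl1, at 527, 251 and 157 CPM, 3.35-fold (3.22 to 3.49) lower, and Il6, at 132, 104 and 34.4 CPM, 3.83-fold (3.52 to 4.16) lower but at a ratio of 1.20 with the make-up held. Cxcl1 and Cxcl2, both ligands of CXCR2, thus went opposite ways. The gp130 co-receptor Lifr was at 129, 40.3 and 22.1 CPM, 5.82-fold (5.33 to 6.35) lower. Of 13 genes of the IL-6 family 6 were at least 2-fold lower and 1 higher, beside 36.2% and 12.1% of all measured genes, so the family did not stand far from the rest.

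Chemokines for T cells and monocytes were higher and stood above the level of all genes with the make-up held. Of 8 measured T cell chemokines and receptors, 6 were at least 2-fold higher and 0 lower, with medians of 4.54 and, with the make-up held, 2.87. The dendritic cell chemokine Ccl22 had 1 UMI in the ligated pancreas and was at 0.188, 34.6 and 45.2 CPM, a ratio of 240.3 (43.1 to 9494). Of 15 monocyte chemokines and receptors, 11 were at least 2-fold higher and 0 lower, with medians of 2.12 and 0.40. Ccl3, a chemokine of activated neutrophils and macrophages, was at 114, 828 and 1042 CPM, 9.17-fold (8.47 to 9.95).

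MHC class II genes, which present peptides to CD4+ T cells, were higher in the whole libraries and in the epithelial- and macrophage/monocyte-like cells, and in other classes their level rested on how free RNA is treated. In the whole libraries 7 of 7 measured members were at least 2-fold higher in the treated tumour (the control tumour had 7 of 7 above 2-fold), with a median log2 ratio of 3.74, and 1.28 with the make-up held. H2-Ab1, the beta chain of the I-A molecule, was at 145, 1711 and 2112 CPM, 14.6-fold (13.6 to 15.7), and at a ratio of 5.18 with every cell weighted equally. The median was 4.47 in fibroblast-like, 3.49 in the epithelial-like and 2.47 in the endothelial-like cells. Among leukocytes it was 2.53 in the neutrophil-like, 2.38 in the T-like and 1.22 in the macrophage/monocyte-like cells. It was lowest in the macrophage/monocyte-like cells, where 5 of 7 members were at least 2-fold higher and 1, the regulator Ciita, lower, and where the ligated pancreas already had its highest level. Free RNA was then modelled as 10% of each class's UMIs, spread as the pooled library, and subtracted. After that, 7 of 7 members were still higher in epithelial-like cells (median 3.60) and 4 of 7 in macrophage/monocyte-like cells (median 1.16), and 2 of 4 in neutrophil-like cells (median 0.96). In fibroblast-like cells 1 member was left measured and lay within 2-fold, in endothelial-like cells 2 were left, 1 higher and 1 lower, and in T-like cells none was left.

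Because class II genes moved together, the 250 bases before the start of the alpha chain gene H2-Aa and of the beta chain gene H2-Eb1 are shown, from RefSeq windows on build GRCm38.p6, 5′ to 3′ on the strand of the gene. Capitals mark CCAAT or its reverse complement ATTGG, the letters of the Y box bound by the factor NF-Y. H2-Aa is on the minus strand at chr17:34287824-34288073 and H2-Eb1 on the plus strand at chr17:34305617-34305866.
H2-Aa: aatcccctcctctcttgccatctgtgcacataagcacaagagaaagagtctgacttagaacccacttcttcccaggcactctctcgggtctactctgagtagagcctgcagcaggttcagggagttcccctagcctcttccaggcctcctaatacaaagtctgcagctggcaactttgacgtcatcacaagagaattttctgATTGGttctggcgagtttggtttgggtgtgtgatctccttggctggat
H2-Eb1: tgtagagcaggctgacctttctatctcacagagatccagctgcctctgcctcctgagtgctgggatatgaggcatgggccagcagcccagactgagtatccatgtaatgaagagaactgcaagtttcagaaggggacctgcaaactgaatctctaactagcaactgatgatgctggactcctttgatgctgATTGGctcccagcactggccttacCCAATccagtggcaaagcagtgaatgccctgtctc
The letters occurred in at least 1 listed window of each of the 4 class II genes searched, of 7 on the list. No window of H2-Ab1, Cd74 or Ciita was included, and H2-DMa also had a window without the letters. The search of list members skipped windows on 1 chromosome, so a gene missing here may still have a window. Counted per window and not per gene, 33.8% of 32851 windows of the same length held them. So a match is common and describes the letters only.

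Fibroblast-like cells, 282 against 521, held 1909661 and 5747405 UMIs. Of 11081 genes measured in them, 1108 (10.0%) were at least 2-fold higher in the treated tumour and 1814 (16.4%) at least 2-fold lower, the smallest shares past 2-fold of the 6 classes combined, with a median log2 ratio of -0.13. Taken relative to that median, 1384 were higher and 1486 lower. Contractile genes and matricellular proteins stood higher, and Clec3b, Inmt and several collagens lower. Of 20 genes of the myofibroblastic list, 13 were at least 2-fold higher and 1 lower (median 1.68). Tagln, which binds actin, was at 104, 535 and 1122 CPM, 10.8-fold (9.39 to 12.5), and Acta2, smooth muscle actin, at 125, 468 and 825 CPM, 6.59-fold (5.79 to 7.54). Thbs2, an adhesive glycoprotein of the matrix, was at 67.6, 256 and 417 CPM, 6.17-fold (5.16 to 7.42). Spp1, osteopontin, was at 91.1, 1519 and 2030 CPM, 22.3-fold (19.2 to 26.0). At the finer clustering resolution of 2.0, 152 cells of the treated tumour and 211 of the ligated pancreas carried the fibroblast name. The Acta2 ratio was 0.812 there, and the ratios were 1.62 for Tagln, 2.44 for Thbs2 and 2.20 for Spp1, with a list median of 0.67. These values leave out a cluster led by Col8a1, Col12a1 and Tnc, with 12 of 12 fibroblast markers raised. It held 71 cells of the ligated pancreas, 972 of the control tumour and 370 of the treated tumour. It stayed unnamed because pericyte or smooth muscle markers were raised too. So the size of these differences rests on whether that cluster is counted as fibroblast-like. The 12 markers of pericytes and smooth muscle summed to 203 CPM in the class in the ligated pancreas, 237 in the control tumour and 251 in the treated tumour, and their part was not tested.

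Other stromal genes named by the rule stood lower. Clec3b, a plasminogen-binding lectin, was at 750.4, 223 and 182 CPM, 4.12-fold (3.80 to 4.47) lower, and Dpt, a matrix protein of the fibroblasts found in many organs, at 1467, 1406 and 732 CPM, 2.01-fold (1.91 to 2.10) lower. Pdgfra, the platelet-derived growth factor receptor of fibroblasts, was at 526, 349.9 and 247 CPM, 2.13-fold (1.96 to 2.31) lower, and Inmt at 128, 7.0 and 5.39 CPM, 23.7-fold (16.3 to 35.6) lower. Both tumours lay below the ligated pancreas for each of these 4 genes, the control tumour only slightly for Dpt. Of 17 collagen genes 2 were at least 2-fold higher and 5 lower (median -0.40), as for Col5a3 at 762, 275 and 228 CPM, 3.34-fold (3.09 to 3.60) lower, and Col6a1 at 1871, 1360.1 and 913 CPM, 2.05-fold (1.96 to 2.14) lower. At resolution 2.0 the ratios were 0.485 for Clec3b, 0.0832 for Inmt and 0.482 for Col6a1, while those of Dpt (0.993), Pdgfra (0.562) and Col5a3 (0.595) no longer passed 2-fold. Dpt and Col6a1 were also just inside 2-fold with free RNA subtracted, at 0.514 and 0.502.

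The inflammatory fibroblast list stood close to the class as a whole. Of 18 genes, 2 were at least 2-fold higher and 4 lower, with a median of 0.00, beside 10.0% higher and 16.4% lower among all measured genes. Cxcl14, a chemokine of stroma, was at 86.9, 429.5 and 1089 CPM, 12.5-fold (10.7 to 14.7), and Il11, a gp130 cytokine, at 6.81, 18.4 and 46.8 CPM, 6.88-fold (3.95 to 13.1). Il1r1 itself differed little in these cells, at 152, 156 and 159 CPM, a ratio of 1.05 (0.916 to 1.20), and Il33 was at 135, 297 and 267 CPM, 1.99-fold (1.74 to 2.28). Of 22 IL-1 and NF-kB targets, 0 were at least 2-fold higher and 2 lower (median -0.38). The lower ones were the NF-kB feedback genes Birc3, at 123, 86.7 and 33.6 CPM, 3.65-fold (3.0 to 4.44) lower, and Tnfaip3, at 173, 195 and 82.3 CPM, 2.11-fold (1.82 to 2.43) lower. Of 15 calcineurin and NFAT genes, none passed 2-fold in either direction in this class (median -0.05). At resolution 2.0 the ratios were 1.51 for Il1r1, 4.4 for Il33, 2.79 for Cxcl14, 0.446 for Birc3 and 0.570 for Tnfaip3, which no longer passed 2-fold. The medians there were 1.03 for the inflammatory list and 0.71 for the IL-1 and NF-kB targets, so both rest on the clustering.

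Of 5 T cell chemokines and receptors measured in the fibroblast-like cells, 4 were at least 2-fold higher and 0 lower, and of 6 class II genes 6 and 0. The class II gene H2-Aa was at 5.24, 155 and 159.9 CPM, 30.5-fold (16.5 to 63.9), but at 0 on both sides after free RNA was subtracted. The chemokine Cxcl9, which is induced by interferon-gamma, was at 53.4, 323 and 399.8 CPM, 7.49-fold (6.14 to 9.22), and at a ratio of 4.70 at resolution 2.0. The protease Mmp3 was at 66.0, 279 and 457 CPM, 6.92-fold (5.79 to 8.34). Beside these, the summed level of the 12 neutrophil markers in the class was 240.4 CPM in the ligated pancreas and 901 in the treated tumour, that of the macrophage/monocyte markers 194 and 232, and that of the acinar markers 1038 and 255. The part of RNA from those cells in these values was not tested.

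Epithelial-like cells, 339 against 563, had the largest share of genes past 2-fold among the 3 non-immune classes, with 1997 of 11996 measured genes (16.6%) at least 2-fold higher and 4230 (35.3%) lower, and a median of -0.48. With ratios taken relative to that median, 2933 were higher and 2863 lower. Genes of tumour and gastric-type epithelium, mesenchymal genes and cell-cycle genes stood higher, and duct and junction genes lower. Cdkn2a, a tumour suppressor locus that inactivates cell-cycle kinases, had 0 UMIs in the ligated pancreas, 336 CPM in the control tumour and 444 in the treated tumour, at least 328-fold higher. The gastric trefoil peptide Tff1, also with 0 UMIs in the ligated pancreas, was at 144 and 255 CPM in the tumours, at least 188-fold higher, and the gastric claudin Cldn18 at 753 and 243 CPM, at least 179.6-fold higher. Plac8, a gene of pancreatic tumour epithelium, was at 4.51, 1402 and 1755 CPM, 389-fold (211 to 811). All 4 stood high in both tumours and at or near 0 in the ligated pancreas, whose epithelial-like cells came from the duct cluster.

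Of 11 measured genes of epithelial-mesenchymal transition, 7 were at least 2-fold higher and 0 lower (median 3.62), as for fibronectin Fn1 at 22.6, 581 and 535 CPM, 23.7-fold (18.0 to 32.0). Of 20 cell-cycle genes 19 were higher (median 3.80), as for Mki67, a gene of dividing cells, at 0.902, 79.8 and 59.9 CPM with 2 UMIs in the ligated pancreas, a ratio of 66.4 (18.3 to 549). Of 15 junction genes 10 were lower and 2 higher (median -1.44), with the tight junction gene Ocln at 125, 9.90 and 17.9 CPM, 6.99-fold (5.81 to 8.42) lower. Krt19, a keratin of ducts, went against that list at 252, 779 and 972 CPM, 3.86-fold (3.54 to 4.21). Fgfr3 was at 478, 8.59 and 10.7 CPM, 44.7-fold (37.0 to 54.4) lower.

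Of 23 IL-1 and NF-kB targets measured in epithelial-like cells, 10 were at least 2-fold higher and 8 lower (median 0.22), beside 16.6% higher and 35.3% lower among all measured genes. After 10% free RNA was subtracted, 8 of 21 were higher and 9 lower (median -0.40), so the sign of the median rests on that step. The neutrophil chemokine Cxcl5 was at 21.7, 188 and 584 CPM, 27.0-fold (20.3 to 36.6), and Ptgs2, the inducible prostaglandin synthase, at 11.3, 241 and 144 CPM, 12.8-fold (8.63 to 19.8). The inhibitor Nfkbia was at 823, 439.6 and 307 CPM, 2.68-fold (2.53 to 2.84) lower, Nfkbiz at 588, 238 and 141 CPM, 4.16-fold (3.86 to 4.48) lower, and the adhesion gene Icam1 at 308, 115 and 104 CPM, 2.98-fold (2.70 to 3.27) lower. Il33 had 3 UMIs in the ligated pancreas and was at 1.35, 92.9 and 70.3 CPM, a ratio of 52.0 (17.7 to 253), and epithelial-like cells held 29.7% of its UMIs in the treated tumour against 1.11% in the ligated pancreas. Il1r1 was at 19.0, 23.2 and 17.3 CPM, a ratio of 0.911 (0.650 to 1.30).

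Genes that interferon induces were mostly higher in the epithelial-like cells, 10 of 18 against 2 lower (median 1.06). The GTPase Gbp2 was at 9.93, 507 and 439 CPM, 44.2-fold (29.1 to 70.6), Cxcl9 at 2.71, 283 and 486 CPM, a ratio on few UMIs of 179.7 (82.5 to 489.9), and the class I light chain B2m at 448, 3136 and 2579 CPM, 5.75-fold (5.40 to 6.13). Glycolysis and hypoxia genes were also higher, 14 of 19 against 2 lower (median 1.59), with lactate dehydrogenase Ldha at 53.2, 636 and 649.6 CPM, 12.2-fold (10.2 to 14.8), while Vegfa, which hypoxia also induces, was at 370, 236 and 165 CPM, 2.24-fold (2.06 to 2.43) lower. The mitochondrial share of UMIs in this class was 2.22% in the ligated pancreas and 7.94% in the treated tumour, and that of Gm42418 13.2% and 2.27%. Markers of other cells also stood higher in the class, with the macrophage/monocyte markers at a summed 76.3, 301 and 302 CPM, the neutrophil markers at 146, 273 and 540.4, and the NK markers at 1.35, 57.1 and 57.9. After 10% free RNA was subtracted, 9 of 15 interferon-induced genes were higher and 2 lower (median 1.18).

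Endothelial-like cells, 131 against 347, had 1254 of 9058 measured genes (13.8%) at least 2-fold higher and 2564 (28.3%) lower, with a median of -0.40. Relative to that median the counts were 1897 and 1552. Genes of basement membrane and of growing vessels stood higher, and the adhesion selectins lower. Sparc, a collagen-binding protein, was at 471, 2711 and 3085 CPM, 6.55-fold (5.60 to 7.70), and Col18a1, a vessel basement membrane collagen, at 108, 242 and 408 CPM, 3.76-fold (2.71 to 5.38). Esm1, a tip cell gene, was at 35.1, 239 and 126 CPM, 3.59-fold (2.02 to 7.04), and the fatty acid carrier Fabp4 at 1004, 1692 and 2826 CPM, 2.81-fold (2.52 to 3.15). Of 17 cell-cycle genes, 12 were higher (median 2.88).

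Selp and Sele, the selectins that catch leukocytes on inflamed vessels, were at 1154, 290.3 and 235 CPM, 4.91-fold (4.29 to 5.61) lower, and at 231, 43.0 and 49.3 CPM, 4.69-fold (3.46 to 6.33) lower. Il1r1 was at 117, 52.0 and 50.7 CPM, 2.31-fold (1.57 to 3.35) lower, with both tumours near the same level, and at a ratio of 0.511 with stricter cells. The lymphatic regulator Prox1 was at 1162, 337 and 214 CPM, 5.44-fold (4.74 to 6.23) lower, beside a lymphatic cluster that held 38 of 131 cells in the ligated pancreas and 34 of 347 in the treated tumour. Of 13 calcineurin and NFAT genes, 4 were at least 2-fold lower and 0 higher, a share of lower genes near the 28.3% of all measured genes. They included the calcineurin subunit Ppp3ca at 726, 436 and 239.6 CPM, 3.03-fold (2.59 to 3.53) lower, and the osmotic stress factor Nfat5 at 1203, 461 and 289 CPM, 4.16-fold (3.66 to 4.72) lower. Cxcl9 was at 11.7, 379.6 and 947 CPM, a ratio of 80.8 (31.5 to 297). The erythroid markers summed to 0 CPM in the class in the ligated pancreas and 1842 in the treated tumour, and the part of that RNA was not tested.

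**Figure D4:**
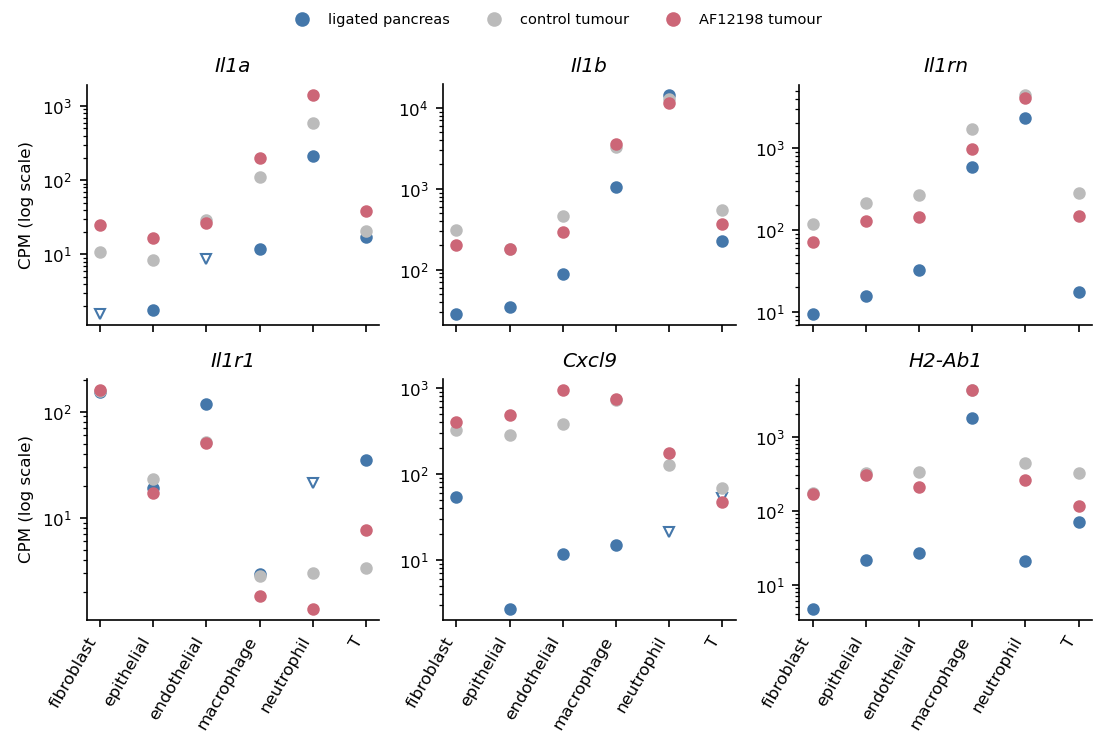
Level of 6 genes in CPM of each class (log axes), 1 point per library, with open triangles at the level that 3 UMIs would give where a library had 0. Il1b of neutrophil-like cells lies close together in the libraries while Il1a lies highest in the treated tumour, Il1r1 is highest in fibroblast-like cells, and Cxcl9 and H2-Ab1 lie above the ligated pancreas in both tumours in most classes.

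Macrophage/monocyte-like cells, 167 against 4492, had 878 of 7615 measured genes (11.5%) at least 2-fold higher and 1976 (25.9%) lower, with a median of -0.40. Relative to that median the counts were 1432 and 1115. The cells of this class had a median of 980 UMIs in the ligated pancreas and 6147.5 in the treated tumour. Only 55 cells of the ligated pancreas carried the name at resolution 2.0. Interferon-induced genes, T cell chemokines and genes of tumour macrophages stood higher, and scavenger and lipid receptors lower. Cxcl9 was at 14.8, 731 and 743 CPM, 50.4-fold (21.6 to 155), Gbp2 at 11.8, 270.1 and 263 CPM, 22.3-fold (8.71 to 81.9), and the membrane protein Ifitm3 at 148, 507 and 1308 CPM, 8.86-fold (6.72 to 11.9). Of 13 interferon-induced genes 8 were higher and 1 lower (median 1.71), and of 7 T cell chemokines and receptors 6 were higher and 0 lower (median 4.60). Arginase Arg1 was at 454, 680.2 and 1277 CPM, 2.81-fold (2.40 to 3.31), the protease Mmp9 at 59.0, 157 and 363 CPM, 6.16-fold (3.98 to 10.1), and the activin subunit Inhba at 85.6, 443 and 614 CPM, 7.17-fold (4.99 to 10.7). Ccl24, an eosinophil chemokine, had 3 UMIs in the ligated pancreas and was at 8.85, 297 and 326 CPM, a ratio of 36.8 (12.6 to 178). With stricter cells the ratios were 19.8 for Mmp9, 32.2 for Inhba and 85.6 for Ccl24.

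Both IL-1 ligands were higher inside this class, whereas Il1b of the neutrophil-like cells below was not. Il1b was at 1042, 3246 and 3541 CPM, 3.40-fold (3.06 to 3.78), Il1a at 11.8, 112 and 197 CPM, 16.7-fold (6.50 to 61.1), and Il1rn at 590.2, 1693 and 982 CPM, 1.66-fold (1.45 to 1.92), with the control tumour above the treated one for Il1rn. Il1b and Il1a were thus past 2-fold and Il1rn was not, and the Il1b ratio was 5.98 at resolution 2.0. The Il1a level of the ligated pancreas rests on 4 UMIs from 4 of 167 cells. The haemoglobin scavenger receptor Cd163 was at 53.1, 7.29 and 3.65 CPM, 14.5-fold (8.33 to 24.0) lower, the fatty acid receptor Cd36 at 336, 31.6 and 22.8 CPM, 14.8-fold (12 to 18.0) lower, and Gpnmb, a lysosomal glycoprotein of lipid-laden macrophages, at 224, 47.2 and 51.7 CPM, 4.33-fold (3.40 to 5.46) lower. Collagen genes were lower as well, 6 of 8, beside a summed level of the 12 fibroblast markers of 1036 CPM in the ligated pancreas and 201 in the treated tumour. After subtraction of 10% free RNA, 1 collagen gene, Col14a1, was left measured and was higher in the treated tumour, and the others were at 0 or too low on both sides. The acinar markers summed to 4963 and 492 CPM, and the part of that RNA was not tested.

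Neutrophil-like cells, 88 against 7489, had 821 of 3959 measured genes (20.7%) at least 2-fold higher and 762 (19.2%) lower, with a median of -0.02. Il1b was their most abundant IL-1 gene and lay within 2-fold, at 14297, 13025 and 11686 CPM, a ratio of 0.817 (0.782 to 0.854). Il1a was at 211, 592 and 1392 CPM, 6.61-fold (4.63 to 9.80), highest in the treated tumour. Il1rn was at 2359, 4398 and 4104 CPM, 1.74-fold (1.56 to 1.94), Il1r2 at 2851, 3596 and 2012 CPM, a ratio of 0.706 (0.640 to 0.780), and the co-receptor Il1rap at 843, 147 and 204 CPM, 4.13-fold (3.41 to 4.96) lower. Of the UMIs of clustered cells, neutrophil-like cells held 2.68% in the ligated pancreas and 14.2% in the treated tumour. Macrophage/monocyte-like cells held 6.38% and 37.4%. The higher Il1b of the whole tumour library thus went with larger shares of both classes and a higher level in macrophage/monocyte-like cells. The higher Il1a went with these larger shares and with a higher level in both classes. In the macrophage/monocyte-like cells of the ligated pancreas that level rests on 4 UMIs.

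Cytokines and chemokines of the Siglecf type of neutrophil stood higher. Tnf was at 176, 814 and 1571 CPM, 8.95-fold (6.06 to 13.8), Ccl4 at 2268, 4283 and 5774 CPM, 2.55-fold (2.28 to 2.85), and Ccl3 at 2451, 4642 and 5464 CPM, 2.23-fold (2.01 to 2.48). Siglecf, a sialic acid receptor, had 3 UMIs in the ligated pancreas and was at 21.1, 163 and 188 CPM, a ratio of 8.91 (3.04 to 43.2). Il23a, a subunit of the cytokine that sustains IL-17 cells, was at 49.2, 463 and 467 CPM, 9.50-fold (4.61 to 23.6), and Cd274, the checkpoint ligand PD-L1, at 344, 563 and 763 CPM, 2.22-fold (1.68 to 3.0). Of 12 genes of this type 6 were at least 2-fold higher and 1 lower (median 1.04), the lower one being Nos2, the inducible nitric oxide synthase, at 126, 6.04 and 2.38 CPM, 53.2-fold (27.8 to 99.1) lower.

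Maturation genes were mixed. Cd177, a surface protein of neutrophils, and Chil3, a lectin of granule-forming cells, had 0 UMIs in the ligated pancreas and were at 200.4 and 293 CPM in the control tumour and 278 and 263 CPM in the treated tumour, at least 13.2-fold and 12.5-fold higher. The growth factor receptor Csf3r was at 1727, 900.4 and 829 CPM, 2.08-fold (1.83 to 2.37) lower. Of 10 granule genes 5 were higher and 1 lower (median 0.99). The ligated side of this class rests on 142412 UMIs of 88 cells against 12207409, and its acinar markers summed to 3125 CPM against 1768.

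T-like cells, 60 against 2490, had 554 of 2785 measured genes (19.9%) at least 2-fold higher and 1211 (43.5%) lower, with a median of -0.78. Relative to that median 859 were higher and 575 lower. The ligated pancreas stood out for IL-17 genes and the treated tumour for cytotoxic genes. Il17a, a cytokine that draws neutrophils, was at 1342, 8.24 and 26.5 CPM, 50.7-fold (38.6 to 66.0) lower in the treated tumour. Its 77 UMIs in the ligated pancreas came from 16 of 60 cells, with 31 in 1 cell, and its 224 in the treated tumour from 55 of 2490. Counts of 1 cell are not independent, so the interval is too narrow. Trdc, the constant chain of the gamma-delta receptor, was at 453, 17.1 and 45.6 CPM, 9.94-fold (6.41 to 14.8) lower, and Cd163l1, a receptor of IL-17 gamma-delta T cells, at 767, 3.72 and 15.7 CPM, 48.8-fold (33.9 to 69.1) lower. Both tumours lay below the ligated pancreas for each of these 3 genes.

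Of 8 cytotoxic genes 7 were at least 2-fold higher and 0 lower (median 3.65). Granzyme B (Gzmb) and Cd8a, the co-receptor of cytotoxic T cells, had 0 UMIs in the ligated pancreas and were at 409.8 and 381 CPM in the treated tumour, at least 7.84-fold and 7.29-fold higher. Ccl5 was at 105, 347 and 1920.2 CPM, 18.4-fold (8.44 to 50.1), and Nkg7, a granule protein of killer cells, at 105, 518 and 913 CPM, 8.73-fold (4.01 to 23.8). Gzmb and Ccl5 stood higher in the treated than in the control tumour, and Cd8a did not. The IL-1 family receptors Il1rl1, which binds Il33, and Il18r1 were at 453, 68.7 and 99.2 CPM, 4.57-fold (2.97 to 6.74) lower, and at 592, 256 and 188 CPM, 3.15-fold (2.18 to 4.43) lower.

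The NF-kB subunit Nfkb1 was at 3380.4, 981 and 466 CPM, 7.25-fold (6.24 to 8.38) lower, and Nr4a1, an early gene of receptor signalling, at 2457, 828 and 268 CPM, 9.17-fold (7.68 to 10.9) lower. In all, 12 of 14 IL-1 and NF-kB targets were lower in T-like cells and 0 higher (median -2.25 against -0.78). The ligated side holds 57390 UMIs, and markers of other cells were high in it. The acinar markers summed to 6918 CPM against 885 in the treated tumour, the fibroblast markers to 1568 against 102, and the macrophage/monocyte markers to 1464 against 511. The part of that RNA in the lower genes was not tested.

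Immediate-early and heat shock genes, which rise when tissue is digested, were mostly lower in the whole library of the treated tumour, but not in every class. In the whole libraries 10 of 15 were at least 2-fold lower and 0 higher (median -1.37, and -1.17 with the make-up held), against 3 lower in the control tumour over the ligated pancreas. The AP-1 subunit Jun was at 3152, 810.4 and 409 CPM, 7.71-fold (7.57 to 7.85) lower. The counts of lower members by class were 3 of 15 in fibroblast-like, 13 of 15 in epithelial-like, 7 of 15 in endothelial-like, 5 of 15 in the neutrophil-like, 5 of 15 in the macrophage/monocyte-like and 12 of 15 in the T-like cells. Among all measured genes the lower shares in that order were 16.4%, 35.3%, 28.3%, 19.2%, 25.9% and 43.5%, so the fibroblast- and macrophage/monocyte-like counts lay near those of all genes. The neutrophil-like cells were split, with 5 of 15 members higher and 5 lower after 10% free RNA was subtracted. In each of the other classes at most 1 member was higher after that step. NF-kB feedback genes such as Nfkbia, Nfkbiz and Tnfaip3 respond to digestion as well, and their lower levels above stand beside these values. The part of the digestion was not tested.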

How the data were processed

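Droplet single-cell RNA sequencing of 4 mouse pancreas libraries was deposited as UMI counts per gene and barcode. The counts were made by the authors with Cell Ranger 6.0.0 on mm10, per the submitters' processing notes, and the sources used here name neither the annotation release nor the cell calling. The deposited matrices held 32285 genes and 48038 barcodes, each with 500 or more UMIs, and no other column of per-sample values.

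Barcodes with 500 or more UMIs, 250 or more genes and at most 20% mitochondrial UMIs were kept. For each library the counts were summed and divided by the library's total (CPM). A gene was measured at 5 CPM or more on 1 side if that level would give 5 UMIs in the smaller sum. Ratios carry exact conditional 95% intervals and shares exact Clopper-Pearson ones, for counting error only. UMIs are counted molecules, but those of 1 cell are not independent. A side with 0 UMIs was set to 3 counts to give a bound. List medians use log2(CPM + 1) differences. With 1 library a group no test was made.

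For classes, Scrublet (in Scanpy 1.11.5) marked 1 barcode of the normal pancreas, 0 of the ligated pancreas and 2163 of the control tumour as doublets. Its automatic threshold marked 1 barcode of the treated tumour, so the 5% with the highest scores (993) were left out there. The 4 libraries were clustered together without integration (counts scaled to 10000 per cell and logged, 2000 variable genes, 40 components, 20 neighbours, Leiden resolution 1.0). A cluster took the name of the class with the most markers raised at least 2-fold in at least 10% of its cells, if there were 3 or more. It stayed unnamed when a second class had 5 or more markers and 40% of its list raised, or when leading genes went against the name. Of 31 clusters, 26 fell into 12 classes and 5 stayed unnamed. The 6 classes with 25 or more cells on both sides were compared.

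Named genes are the 12 highest and 12 lowest of the whole library and the 8 highest and 8 lowest of each class, at 30 CPM or more, ranked by the interval bound nearest to 1. Predicted, mitochondrial and ribosomal protein genes were left out. Up to 4 members past 2-fold in each direction of each list and the measured IL-1 family genes were added. Genes given for their level within 2-fold, or in a class where the rule did not name them, were chosen after their values were seen. The members and lists were chosen with earlier results of these data known. Amy2b, Cxcl11, Il36rn and Mx1 of the lists are not among the files' symbols, and the Il36 genes were matched through RefSeq synonyms. Promoter windows are from RefSeq on GRCm38.p6. Alternatives were stricter cells (1000 UMIs, 500 genes, 10% mitochondrial), doublets kept or left out, other gene filters, totals, scalings and resolutions, cells weighted equally, and 10% free RNA subtracted. The ratio, interval and 2-fold call steps were tested on simulated data, and the list steps were not. Python 3.11.15, numpy 2.4.6, scipy 1.17.1, pandas 2.3.3, igraph 0.11.9, scikit-learn 1.9.0 and matplotlib 3.10.9 were used.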

Additional observations from a re-analysis of the deposited data

Results flagged for a closer look

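In 3 gene lists the median moved in opposite directions in 2 classes, relative to the median over all genes of each class, by more than 1 on the log2 scale. With 1 library a group none of these differences between classes was tested. Collagen genes stood 1.51 above the class median in epithelial-like cells and at -2.71 in macrophage/monocyte-like cells. In the first, 8 of 15 members were at least 2-fold higher in the treated tumour and 2 lower, and in the second 0 of 8 were higher and 6 lower. Matrix glycoproteins and crosslinking enzymes stood at 1.97 in epithelial-like and -2.19 in macrophage/monocyte-like cells. Beside the lower values, the 12 fibroblast markers summed to 1036 CPM in the macrophage/monocyte-like cells of the ligated pancreas and 201 CPM in those of the treated tumour, against 243 and 282 CPM in epithelial-like cells. After 10% free RNA had been subtracted, 1 collagen gene, Col14a1, was left measured in the macrophage/monocyte-like cells, at a log2 difference of 4.81, so no median over the list could be had there.

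Genes that calcineurin signalling induces stood at 1.50 in epithelial-like cells, with 6 of 11 members higher and 2 lower, and at -1.07 in T-like cells, with 1 of 8 higher and 5 lower. This list holds Nr4a1 and other early genes that digestion also induces, and in the dissociation list 13 of 15 genes were lower in epithelial-like and 12 of 15 in T-like cells. With free RNA subtracted, the median of the epithelial-like cells before any centring was -0.20 in place of 1.02. The fibroblast markers of the T-like cells summed to 1568 CPM in the ligated pancreas and 102 CPM in the treated tumour.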

How the results depend on the processing

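Each side has 1 library, 60 T-like and 88 neutrophil-like cells limit the ligated side, and all intervals cover counting error only. No paired analysis was possible because each group has 1 sample. For the whole libraries, centring on the median gene gave 2580 genes at least 2-fold higher and 3012 lower, a filter of 20 CPM gave 2404 lower, and no gene filter gave 12993 lower. At a held class make-up the ratio turned to 0.778 for Il1r2, 0.388 for Ctrb1 and 1.20 for Il6, and the complement median to 0.082. The held make-up leaves out unnamed cells, which held 292670 of the 317531 Ctrb1 UMIs of the treated tumour. The median of the B markers was -2.78 at 20 CPM, with fewer genes tested.

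The fibroblast-like ratio was 0.0429 at resolution 2.0, where a further cluster with fibroblast markers stayed unnamed. Among named non-immune cells it was 0.971, the epithelial-like ratio 0.873 and the endothelial-like one 1.39. These ratios leave out the unnamed cluster led by Lgals2, Cdh17 and Cldn18. The epithelial-like ratio was 0.116 with stricter cells and 16.2 at resolution 0.5, where the duct cluster stayed unnamed. The macrophage/monocyte-like ratio was 3.17 with stricter cells and 4.69 at resolution 2.0, the neutrophil-like ratio 6.57 at resolution 2.0, and the T-like ratio 5.68 with stricter cells. At resolution 2.0 a cluster with both acinar and macrophage/monocyte markers, holding 133 cells of the ligated pancreas, stayed unnamed. With stricter cells the fibroblast cluster had no name and gave no value.

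Within classes, fibroblast-like cells had 2770 lower genes at resolution 2.0, and 688 higher and 795 lower at 20 CPM. Epithelial-like cells had 1282 higher and 2701 lower at 20 CPM. Centring gave 1897 higher and 1552 lower in endothelial-like, 1432 and 1115 in macrophage/monocyte-like, and 859 and 575 in T-like cells. Acta2 of fibroblast-like cells had a ratio of 0.812 at resolution 2.0. With free RNA subtracted, the class II median of endothelial-like cells was -1.22 over 2 members left, the collagen value of macrophage/monocyte-like cells 4.81 from 1 member left, Col14a1, and the calcineurin-responsive median of epithelial-like cells -0.20. Of the values for single named genes, 687 stayed within the spread set for them, 205 moved and 4 turned. Of the list medians, 242 stayed, 124 moved and 5 turned. The causes were not tested.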

Other observations

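Of 12 acinar markers 3 were at least 2-fold higher and 3 lower in the treated tumour than in the ligated pancreas, beside 12.1% and 36.2% of all measured genes, while in the control tumour 11 were lower. The proteases Ctrb1 and Try5 were at 957, 272 and 3458 CPM, 3.62-fold (3.52 to 3.72) and 1.96 with every cell weighted equally, and at 128, 97.5 and 1528 CPM, 11.9-fold (11.0 to 12.9). The lipase Pnlip was at 865, 43.5 and 351 CPM, 2.46-fold (2.39 to 2.54) lower, and the elastase Cela2a at 801, 23.9 and 229 CPM, 3.50-fold (3.39 to 3.62) lower. An unnamed cluster led by Pnliprp2, Ctrb1 and Reg1, with all 12 acinar markers raised, held 11 cells of the ligated pancreas, 57 of the control tumour and 326 of the treated tumour. In the 6 classes compared, which leave these cells out, 11 of 12 acinar markers were lower at a held make-up and 0 higher.

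The complement genes were split. Of 15 measured members 6 were at least 2-fold higher and 8 lower (median -1.09, and 0.08 at a held make-up). C1qb, a recognition subunit made by macrophages, was at 98.6, 389.9 and 836 CPM, 8.48-fold (7.78 to 9.26), whereas C1s1 and C4b, a protease and a component made by stroma, were at 357, 188 and 43.7 CPM, 8.18-fold (7.74 to 8.64) lower, and at 273, 114 and 56.8 CPM, 4.80-fold (4.53 to 5.09) lower. T cell checkpoint and regulatory genes were higher in 13 of 15 members and lower in 0, with a median of 2.53, and of 0.41 at a held make-up. Of 11 MHC class I genes 8 were higher and 0 lower, with medians of 1.65 and 0.49. The IgA heavy chain Igha was at 1.50, 2669.8 and 557 CPM, highest in the control tumour.

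Mural cells also stayed unnamed, since endothelial markers were raised in their cluster too. Led by Rgs5 and Notch3, it held 20 cells of the ligated pancreas, 91 of the control tumour and 38 of the treated tumour. In whole-library sums the B cell marker Ebf1, also a gene of mural cells and fibroblasts, was at 283, 71.3 and 40.4 CPM, 6.99-fold (6.58 to 7.42) lower, while 4 of 5 measured B markers were at least 2-fold higher. The mast cell protease Mcpt2 was at 6.02, 44.6 and 195 CPM, 32.5-fold (23 to 47.5), with a ratio of 10.4 when every cell was weighted equally, and stood higher in the treated than in the control tumour.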
